A study of Mus musculus with 12 samples.

Results

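The genes that surround Dis3l on mouse chromosome 9 were examined in Dis3L KO and Dis3L WT blastocysts and embryonic stem (ES) cells. Dis3l encodes a ribonuclease of the RNA exosome in the cytoplasm, where the complex degrades transcripts from the 3′ end. Members were the protein-coding genes listed in both deposited tables whose start lies on chromosome 9 between 60306756 and 68306756 (GRCm38), that is within 4 Mb of the Dis3l start at 64306756. Dis3l itself, Rpl4, Rplp1 and Zfp609 were left out. This gave 53 members of the 12889 protein-coding genes found in both tables. Of these, 20 lie at lower and 33 at higher coordinates than Dis3l, and 30 are on the plus and 23 on the minus strand.

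The labels list 12 samples in 4 groups of 3: blastocysts labelled Dis3L KO, blastocysts labelled Dis3L WT, ES cells labelled Dis3L KO and ES cells labelled Dis3L WT. Blastocysts were collected 96 h after the hCG injection that triggered ovulation, and each library came from a single embryo by Tn5 tagmentation of cDNA. The ES cells, which are pluripotent cells derived from blastocysts, were derived and grown with LIF on inactivated mouse embryonic fibroblast feeders, and their libraries were stranded and ribodepleted. The kind of Dis3l allele, its exons, the strain and the number of ES cell lines are not given in the sources used here. Because the labels do not say whether the ES cell samples came from separate lines or cultures, p-values there measure only the spread between these samples.

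Deletion of a gene can touch its neighbours in cis. A removed segment may hold an enhancer of a gene nearby, an inserted cassette can bring its own promoter or terminator, and transcripts that run past a gene's end can reach the next gene. A knockout made in cells of one strain and bred into another also keeps a stretch of chromosome from the first strain around the targeted gene, and expression differences carried by that stretch go with the genotype. For these reasons the closest genes of a targeted locus are commonly read beside the targeted gene itself.

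Both tables hold the authors' comparison, gene by gene, and no value for a single sample. Neither says which group was set over which, so signs are given as deposited. Whole reads per count column were recovered from the authors' means of normalised counts. For blastocyst means above 60 the deposited log2 fold change and its standard error were also used to choose the reads. Each count column was placed on the side that raises the log2 fold change (the positive side) or on the side that lowers it (the negative side). The columns were not assigned to samples or to genotypes, and where values stand against each other the positive side comes first. The blastocyst means rested on 6 count columns, 3 on each side. The ES cell means rested on only 4 count columns, 2 per side, although 6 ES cell samples are labelled. Reads were recovered for all 53 members in ES cells and for 49 in blastocysts, where Snx1 and Tpm1 lay above the range that could be solved and 2300009A05Rik and Pclaf had a mean of 0. In the ES cell columns the recovered genes held 1453124 and 888209 reads on the positive side, against 1197308 and 1239556. The 2 tables are on different scales: the standard error (SE) of the log2 fold change had a median of 0.59 over the tested blastocyst members and of 0.30 over those of ES cells, per the authors' deposited tables, and the ES cell fold changes given there were smaller than the ratios of the recovered reads for nearly all members.

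Dis3l was examined first, as the targeted gene. It lies on the minus strand from 64306756 to 64341288. In ES cells 14 and 8 reads were recovered for it in the columns of the positive side, against 39 and 39 in those of the negative side. As normalised counts these were 11.2 and 10.5 against 37.1 and 37.7, a log2 ratio of −1.78. Both positive-side columns were lower than both negative-side columns, and reads were present in all 4. The authors' deposited table gave a log2 fold change of −0.88 (SE 0.33), with an unadjusted p of 0.00778 (Wald test) and an adjusted p of 0.445. In blastocysts it had 26, 8 and 0 reads against 10, 4 and 8. The sides overlapped there, and the targeted gene did not tell which side holds the KO embryos.

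The region next to Dis3l is simple in layout. Tipin, whose product partners Timeless at replication forks, runs on the plus strand from 64281581 to 64305424 and ends 1331 bases from the 3′ end of Dis3l, so that the genes converge. Megf11, which encodes a transmembrane protein with multiple EGF-like repeats, runs on the plus strand from 64385626 to 64709205. Its 5′ end is 44337 bases from that of Dis3l, and the genes are transcribed away from each other. No exon of Tipin or Megf11 overlapped an exon of a gene on the other strand in the GENCODE annotation. Among the 53 members, 9 had such an overlap, including Zwilch with Lctl over 254 bases. Whether the authors counted by strand is not given in the sources used here, so reads of such pairs cannot be told apart.

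The start regions of Dis3l and of the members with an unadjusted p under 0.05 in ES cells are shown so that the targeted gene's own promoter can be set beside theirs. Sequences are from RefSeq (GRCm38.p6) and run from 250 bases before to 50 bases after the start of transcription, 5′ to 3′ on the gene's strand, with CG dinucleotides in capitals. For Dis3l the sequence is chr9:64340724-64341023, for Hacd3 chr9:65021668-65021967 and for Usp3 chr9:66593066-66593365, all on the minus strand. The 5′ end of Dis3l used above for the gap to Megf11, 64341288, lies outside its window, so the annotations place that start differently. Megf11 and Tipin had no entry.

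Dis3l: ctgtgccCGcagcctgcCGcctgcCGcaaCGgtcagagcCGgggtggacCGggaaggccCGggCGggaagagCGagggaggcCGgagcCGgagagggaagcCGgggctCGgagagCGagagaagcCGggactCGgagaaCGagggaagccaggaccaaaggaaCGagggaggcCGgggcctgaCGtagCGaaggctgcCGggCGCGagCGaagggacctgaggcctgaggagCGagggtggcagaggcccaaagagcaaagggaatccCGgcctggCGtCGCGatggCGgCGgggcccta
Hacd3: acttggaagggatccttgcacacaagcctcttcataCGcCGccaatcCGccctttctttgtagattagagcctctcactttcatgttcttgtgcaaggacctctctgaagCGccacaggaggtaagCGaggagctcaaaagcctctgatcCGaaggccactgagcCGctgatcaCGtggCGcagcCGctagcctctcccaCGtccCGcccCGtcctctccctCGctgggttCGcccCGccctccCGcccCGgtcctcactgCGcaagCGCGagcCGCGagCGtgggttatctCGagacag
Usp3: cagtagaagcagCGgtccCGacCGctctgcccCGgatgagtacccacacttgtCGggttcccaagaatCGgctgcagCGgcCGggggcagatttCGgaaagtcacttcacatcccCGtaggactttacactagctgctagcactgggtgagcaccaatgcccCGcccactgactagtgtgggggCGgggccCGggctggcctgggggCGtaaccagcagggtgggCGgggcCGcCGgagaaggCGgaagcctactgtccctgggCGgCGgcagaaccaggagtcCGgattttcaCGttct

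The Dis3l start region held 32 CG dinucleotides, that of Hacd3 25 and that of Usp3 22. Of the 27025 promoters of that length in the RefSeq table, 9.24% held at least as many as Dis3l, 18.4% at least as many as Hacd3 and 23.3% at least as many as Usp3. The 46 members with an entry had a median of 22, against 7 for all promoters. The letters GGGCGG on either strand, the core of the GC box, were present in the start regions of 38 of these 46 members (82.6%) and in 35.9% of all promoters. They occurred at 1 position in Dis3l and at 4 positions each in Hacd3 and Usp3. The letters CCAAT on either strand were found in 23 of the 46 members (50%) and in 37.9% of all promoters. They were present in Hacd3 and Usp3, and these letters were not in the Dis3l window. The members are genes listed in both tables, whereas the promoter table was not limited to such genes.

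No neighbour of Dis3l passed the adjusted threshold in either material. In blastocysts 0 of 51 tested members had an adjusted p under 0.05 in the authors' deposited table (DESeq2 Wald test with Benjamini-Hochberg adjustment), where 15 of 15209 genes (0.0986%) passed. In ES cells 0 of 49 tested members had an adjusted p under 0.05 in the authors' deposited table, where 28 of 10739 genes (0.261%) passed. Against shares this low, a count of 0 is no result about the members. At an unadjusted p under 0.05 in the authors' deposited table, 3 of 51 members were counted in blastocysts (5.88%), against 6.21% of all tested genes and 6.45% of the tested protein-coding genes elsewhere on chromosome 9. In ES cells 3 of 49 were counted in the authors' deposited table (6.12%), against 5.62% of all tested genes and 4.47% elsewhere on chromosome 9. Both shares lay near their backgrounds. The blastocyst genes were Dennd4a, Rbpms2 and Usp3, and the ES cell genes were Megf11, Hacd3 and Usp3.

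**Figure D1:**
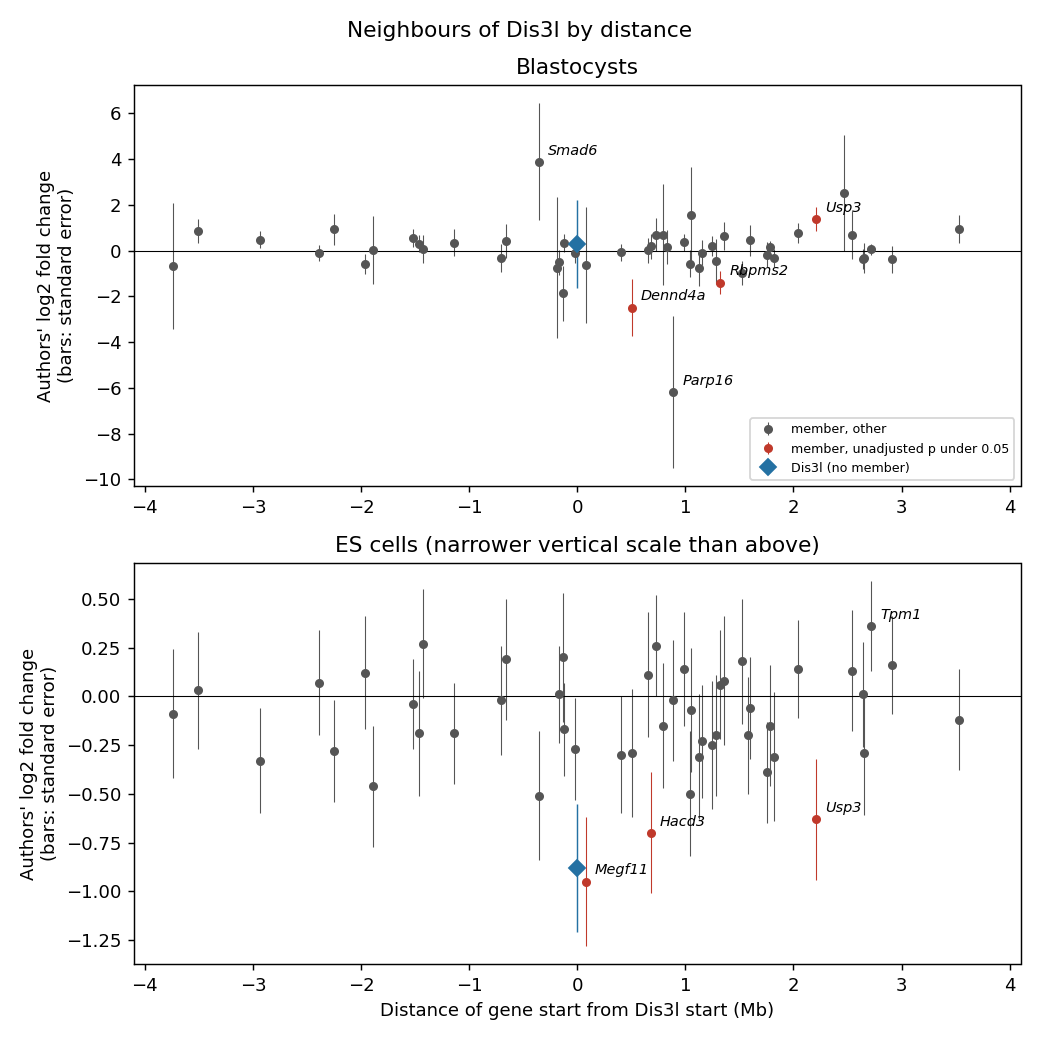
Log2 fold changes of the members tested in each of the authors' deposited tables (vertical axis, bars are the authors' standard errors) against the distance of the gene's start from that of Dis3l in Mb (horizontal axis), for blastocysts above and ES cells below. Members with an unadjusted p under 0.05 are red and Dis3l is the blue diamond. In ES cells Megf11, at −0.95, lies beside Dis3l at −0.88, while most members scatter around 0 at every distance.

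Megf11, the first gene on the 5′ side of Dis3l, was the member with the smallest p in ES cells. It had 10 and 7 reads in the positive-side columns, against 43 and 31. As normalised counts these were 7.98 and 9.22 against 40.9 and 30, a mean of 8.60 ± 0.873 (SD, n = 2 columns) against 35.4 ± 7.73 (SD, n = 2 columns). Both positive-side columns were below both negative-side columns, as for Dis3l, and the sides differed 4.12-fold, a log2 ratio of −2.04. Leaving out 1 column at a time gave log2 ratios from −2.25 to −1.80. The authors' deposited table gave a log2 fold change of −0.95 (SE 0.33), with an unadjusted p of 0.00428 and an adjusted p of 0.325, so the difference was not past the threshold after adjustment. Over the whole ES cell table, 141 of 10739 genes (1.31%) had a p at or under that of Megf11, 103 of them with a negative sign. Since Megf11 was picked as the smallest p of 49 tested members, this place is a description and no test. A log2 ratio of reads at or under that of Megf11 was found in 58 of 10526 genes (0.551%). Megf11 was a low gene: its mean per kilobase of exon was 1.97 normalised counts in ES cells, which placed it 48 of the 53 members. In blastocysts Megf11 had 42 reads in 1 column of each side and 0 in the other 4 columns, so a difference was not detectable at this depth.

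Tipin, the neighbour on the 3′ side and the closest gene of all, differed little. In ES cells its normalised counts were 117 and 153 on the positive side, against 154 and 186, a log2 ratio of −0.33. The columns of the sides did not overlap, with 153 against 154 for the nearest of them. The authors' deposited table gave −0.27 (SE 0.26), with an unadjusted p of 0.3. In blastocysts the normalised counts of Tipin were 194, 146 and 155 against 197, 194 and 144, and the sides overlapped. The authors' deposited table gave −0.11 (SE 0.44) there.

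**Figure D2:**
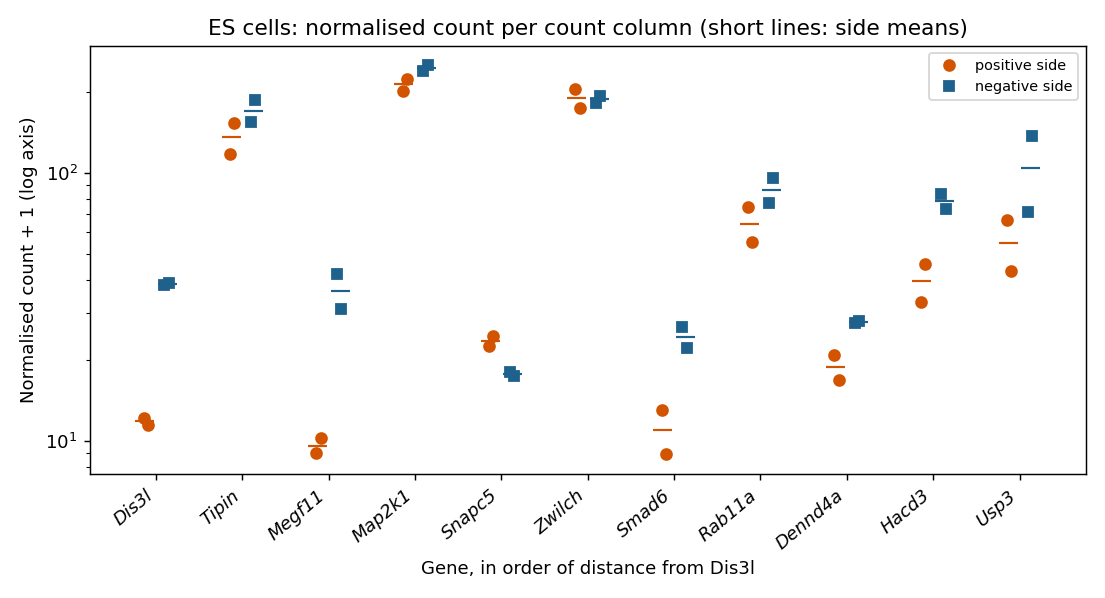
Normalised count plus 1 in each of the 4 ES cell count columns (log axis) for Dis3l and 10 members in order of distance, circles for the positive side and squares for the negative side, with short lines at the side means. Dis3l, Megf11, Smad6 and Hacd3 have both positive-side columns well under both negative-side columns, Zwilch overlaps, and Snapc5 lies the other way.

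The genes on the 3′ side beyond Tipin were mostly close between sides in ES cells. Map2k1, which encodes the kinase MEK1, had 202 and 224 normalised counts on the positive side, against 239 and 251. Snapc5, a subunit of the complex that starts small nuclear RNA transcription, had 21.6 and 23.7 against 17.1 and 16.4, which is the opposite order. Zwilch, part of the RZZ complex at kinetochores, had 204 and 174 against 181 and 193, with the sides overlapping. Smad6, an inhibitor of BMP signalling whose start lies −354 kb from that of Dis3l, had 12 and 7.90 against 25.7 and 21.3, a log2 ratio of −1.24. The authors' deposited table gave Smad6 −0.51 (SE 0.33), with an unadjusted p of 0.118, so the gene did not pass at either threshold. Smad3, a mediator of TGF-β signalling, had 55.9 and 50.0 against 40.9 and 46.4, and Aagab, an adaptor-complex assembly factor, had 95.8 and 124 against 97.0 and 125. The authors' deposited table gave Smad3 0.19 and Aagab −0.02, each smaller than its standard error.

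On the other side, beyond Megf11, Hacd3 had the second lowest p of the ES cell members. Hacd3 encodes an enzyme of very-long-chain fatty acid synthesis, and its start lies 680 kb from that of Dis3l. Its normalised counts were 31.9 and 44.8 on the positive side, a mean of 38.4 ± 9.08 (SD, n = 2 columns). On the negative side they were 82.7 and 72.5, a mean of 77.6 ± 7.25 (SD, n = 2 columns). The sides did not overlap and differed 2.02-fold, a log2 ratio of −1.02 that ranged from −1.28 to −0.79 when columns were left out in turn. The authors' deposited table gave −0.70 (SE 0.31), with an unadjusted p of 0.0235 and an adjusted p of 0.700. Ints14, an Integrator subunit whose 3′ end lies 4 bases from that of Hacd3, had 41.5 and 60.6 against 51.3 and 38.7 and overlapped between sides. In blastocysts Hacd3 had 147, 79.2 and 126 against 79.2, 91.4 and 141, with the sides overlapping.

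Between Megf11 and Hacd3 lie Rab11a, a small GTPase of recycling endosomes, and Dennd4a, an exchange factor for Rab GTPases. In ES cells Rab11a had 73.4 and 54.0 normalised counts against 76.1 and 94.7, and Dennd4a had 20.0 and 15.8 against 26.6 and 27.1. The positive side was lower in both genes without overlap, with log2 ratios of −0.42 and −0.59. The authors' deposited table gave them −0.30 and −0.29, with unadjusted p of 0.319 and 0.386. Neither gene passed a threshold in ES cells.

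Further out on that side, the other genes of the nearest 20 were read in ES cells in the same way. Pdcd7, a component of the minor spliceosome, had 42.3 and 29.0 against 58.9 and 63.8, and Mtfmt, which formylates the initiator tRNA of mitochondria, had 7.19 and 11.9 against 12.4 and 21.3. Igdcc4, an immunoglobulin-superfamily membrane protein, had 7.19 and 13.2 against 13.3 and 13.5. In each of these the positive side was the lower one. Dpp8, a cytosolic dipeptidyl peptidase, had 149 and 153 against 113 and 128, and Clpx, the ATPase subunit of a mitochondrial protease, had 89.4 and 90.9 against 80.8 and 77.3, both with the positive side higher. Parp16, an ADP-ribosyltransferase of the endoplasmic reticulum, had 10.4 and 11.9 against 6.66 and 16.4, and Ubap1l had 63.9 and 27.7 against 52.3 and 48.3. The lower side of Dis3l has Map2k5, the kinase that activates ERK5, as the last of the 20, with 166 and 182 against 161 and 249. These last 3 genes overlapped between sides. The unadjusted p of these 8 genes in the authors' deposited table ran from 0.114 for Pdcd7 to 0.950 for Parp16.

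Usp3, which encodes a deubiquitinase of histones, was the 1 member with an unadjusted p under 0.05 in both tables, and its signs were opposite. In blastocysts its normalised counts were 236, 158 and 313 on the positive side, a mean of 236 ± 77.4 (SD, n = 3 columns), and 71.7, 134 and 66.2 on the negative side, a mean of 90.6 ± 37.5 (SD, n = 3 columns). All 3 positive-side columns were above all 3 negative-side columns, and the log2 ratio was 1.38, or 1.12 to 1.77 with columns left out in turn. The authors' deposited table gave 1.38 (SE 0.52), with an unadjusted p of 0.00739 and an adjusted p of 0.537. In ES cells the counts of Usp3 were 65.5 and 42.1 against 70.4 and 136, with the positive side lower. The authors' deposited table gave −0.63 (SE 0.31), with an unadjusted p of 0.0413 and an adjusted p of 0.856. That ES cell ratio leaned on negative-side column 2: the log2 ratio of −0.94 became −0.39 without it. Since neither table states its direction, opposite signs do not show opposite effects, and the difference between materials was not tested. Usp3 starts 2208 kb from Dis3l.

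Rbpms2, an RNA-binding protein gene known from heart and smooth muscle, had the smallest p of the members in blastocysts. Its normalised counts were 153, 110 and 103 on the positive side, against 387, 140 and 434. On the negative side 2 columns were high, and the third, 140, lay below the highest positive-side column, so the sides overlapped. The authors' deposited table gave −1.40 (SE 0.50), with an unadjusted p of 0.00545 and an adjusted p of 0.476. Leaving out columns in turn moved the log2 ratio between −1.75 and −1.12. In ES cells Rbpms2 had 148 and 108 against 145 and 99.5 and overlapped.

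Dennd4a was the third blastocyst member with an unadjusted p under 0.05, at 0.0453 with a log2 fold change of −2.49 (SE 1.24) in the authors' deposited table. Its normalised counts were 11.4, 0 and 13.7 on the positive side, against 21.0, 80.3 and 40.3. The sides did not overlap, and the log2 ratio ran from −3.05 without positive-side column 3 to −1.87 without negative-side column 2. The sign was negative in both materials for this gene, 505 kb from Dis3l. Snapc5 also lay apart between sides in blastocysts, with 22.8, 16.2 and 0 against 40.8, 33.4 and 69.1, and the authors' deposited table gave it −1.86 (SE 1.2) with an unadjusted p of 0.121. Its log2 ratio ran from −2.56 without positive-side column 1 to −1.29 without positive-side column 3. Over the 36 tested members with a blastocyst mean of at most 200, the positive side was lower without overlap in 3 (8.33%: Dennd4a, Snapc5 and Trip4), against 5.08% of 11938 tested genes in that range. It was higher without overlap in 4 (11.1%: Oaz2, Uaca, Usp3 and Vps13c), against 4.07%. In 2 of the 33 of these members also read in ES cells (6.06%), the sides lay apart in both materials but the opposite ways, against 2.15% of 6614 genes. The 2 were Snapc5 and Usp3, and a count this small is given as a description.

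**Figure D3:**
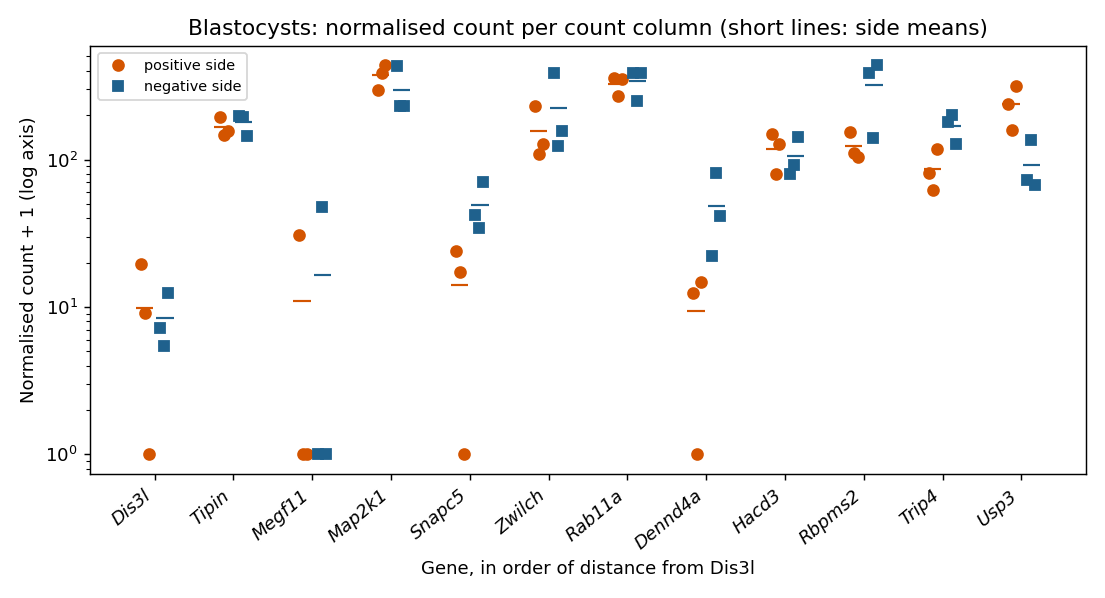
Normalised count plus 1 in each of the 6 blastocyst count columns (log axis) for Dis3l and 11 members in order of distance, circles for the positive side and squares for the negative side, with short lines at the side means. Points at 1 are columns with 0 reads. Dis3l, Megf11, Snapc5 and Dennd4a each have at least 1 such column, Usp3 lies higher on the positive side, and Tipin, Rab11a and Hacd3 overlap.

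The 2 largest fold changes of the blastocyst members came from single columns. Parp16 had 26 reads in 1 negative-side column and 0 in the other 5. With a floor of 3 reads set in each positive-side column, the side means differed 4.34-fold, while the authors' deposited table lists −6.17 (SE 3.33). Both values for Parp16 rest on that 1 column, and without it neither side has a read. Nearly all blastocyst counts were even, so that floor may be too low, and a higher floor would give a smaller fold. Smad6 had 64 reads in 1 positive-side column and 4 in 1 negative-side column, and the authors' deposited table lists 3.88 (SE 2.56). Neither passed an unadjusted p of 0.05. Blastocyst genes with high counts varied less. Rab11a had 355, 267 and 350 normalised counts against 385, 248 and 387, and Kif23, the kinesin of the midzone in cytokinesis, had 547, 536 and 313 against 477, 504 and 515. Clpx had 517, 583 and 1163 against 503, 573 and 688, with 1 high column. Herc1, a giant HECT-domain ubiquitin ligase gene, had 417, 575 and 414 against 304, 391 and 124, and the sides lay apart. The authors' deposited table gave Herc1 0.78 (SE 0.44), with an unadjusted p of 0.0794 (Wald test). Its log2 ratio ran from 0.43 without negative-side column 3 to 1.13 without negative-side column 2. Negative-side column 3 was the lowest column for Herc1, Fem1b and Usp3, and the highest for Rbpms2 and Snapc5. Trip4, a transcriptional coactivator subunit, had an unadjusted p of 0.0651 and a log2 fold change of −0.97 in the authors' deposited table.

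The members with the highest means are given next. Fem1b, a substrate receptor of a ubiquitin ligase, had 657 and 917 normalised counts against 708 and 911 in ES cells, and 565, 681 and 599 against 425, 635 and 199 in blastocysts. Tpm1, a tropomyosin of actin filaments, had 311 and 329 against 250 and 228 in ES cells, a log2 ratio of 0.42, the positive side being higher. The authors' deposited table gave Tpm1 0.36 (SE 0.23) in ES cells, the highest log2 fold change among the tested members, and 0.05 (SE 0.25) in blastocysts, at a mean of 1753. Snx1, a sorting nexin of the retromer, had the highest blastocyst mean of the members, 2939, with a log2 fold change of 0.17 (SE 0.25) in the authors' deposited table. Tln2, a talin that links integrins to actin, had 220 and 224 against 174 and 215 in ES cells.

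Sorted by function, no list held a member past the adjusted threshold, and few were past the unadjusted one. The lists were drawn up from textbook roles, and the shares over all tested genes to read them against were 6.21% in blastocysts and 5.62% in ES cells. The signalling list (Map2k1, Map2k5, Smad3, Smad6 and Csnk1g1) had 0 of 5 members with an unadjusted p under 0.05 in either of the authors' deposited tables. All 5 were positive in blastocysts, with a median log2 fold change of 0.40, and 4 of 5 were negative in ES cells, with a median of −0.17. Replication and division genes (Tipin, Zwilch, Kif23, Pif1, Usp3 and Anp32a) had 1 of 6 in each of the authors' deposited tables, which was Usp3. Membrane traffic genes had 1 of 7 in blastocysts, Dennd4a, and 0 of 7 in ES cells. The transcription and RNA processing list (Snapc5, Ints14, Trip4, Pdcd7, Tle3 and Parp16) had 0 of 6 in both of the authors' deposited tables, where its median log2 fold change was −0.77 for blastocysts and 0.04 for ES cells. Without Parp16, which was listed there although its product acts at the endoplasmic reticulum and whose blastocyst reads lay in 1 column, the medians were −0.57 and 0.11. Rbpms2, the blastocyst member with the smallest p, was in none of the lists. Mitochondrial genes had 0 of 4 in both, and ubiquitin and SUMO genes 0 of 3 in both. In ES cells the cytoskeleton and adhesion list had 1 of 6, Megf11, and the metabolism list 1 of 5, Hacd3. For all tested genes the authors' deposited tables gave medians of −0.04 (blastocysts) and 0.00 (ES cells).

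Signs were uneven in ES cells. Of the 49 tested members, 31 were negative (63.3%) in the authors' deposited table, where 50% of all tested genes and 49.3% of those elsewhere on chromosome 9 were, and the median was −0.12 against 0.00 for all tested genes. With a mean of at least 50 the median of the members was −0.03. By reads, 17 of 49 members (34.7%) had both positive-side columns below both negative-side columns, a pattern seen in 20.4% of all tested genes with recovered reads. The reverse pattern was seen in 7 of 49 (14.3%), against 20.1% of all. Besides genes already named, the 17 included Ppib, a cyclophilin of the endoplasmic reticulum, with 124 and 115 normalised counts against 164 and 170, and Spg21, with 63.1 and 68.5 against 78.9 and 85.0. The 7 were Anp32a, Clpx, Dpp8, Smad3, Snapc5, Tln2 and Tpm1. These shares are descriptions of 4 columns, and neighbouring genes are not independent of each other.

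One ES cell column moved with that pattern. Over the 38 members with a mean of at least 20, the median log2 level relative to the gene's own mean was −0.01 and −0.07 (positive side) against −0.03 and 0.17 (negative side). Over all 8732 such genes the medians were −0.02, −0.02, −0.03 and 0.00. The members thus stood highest in negative-side column 2. The summed normalised counts of all 6 feeder fibroblast markers (Col1a1, Col1a2, Col3a1, Postn, Thy1 and Vim) were 827 and 665 on the positive side, against 756 and 1829, so the same column was the high one. In the authors' ES cell comparison 4 of the 6 were negative. Only Col1a1 had an unadjusted p under 0.05 there, at −0.92 (SE 0.33), with a p of 0.0056 (Wald test) and an adjusted p of 0.378. None of the 6 was at 0 in the ES cell table. Their part in the members' values was not tested. Megf11 was highest in the other negative-side column, at 40.9 against 30, and so was Hacd3, at 82.7 against 72.5, whereas Usp3 was highest in negative-side column 2. The summed counts of 5 of the 6 trophectoderm markers (Eomes, Gata3, Krt18, Krt8 and Tfap2c) were 133 and 145 against 232 and 137. The sum was thus highest in negative-side column 1, the higher column of Megf11 and Hacd3. The markers did not share one sign. Of the 3 tested in the authors' ES cell comparison, 2 were negative and Tfap2c was positive, at 0.91 (SE 0.33) on the log2 scale. Its unadjusted p was 0.00584 (Wald test) and its adjusted p 0.387. The part of these markers in the values of Megf11 and Hacd3 was not tested. Summed counts of 5 of the 6 pluripotency markers were 2356 and 1724 against 2653 and 2576. In the authors' ES cell comparison all 6 were negative, with a median log2 fold change of −0.28. None of them had an unadjusted p under 0.05 (Wald test), and their part in the members' signs was not tested. In bulk samples of this kind, fewer cells of a type and less RNA per cell cannot be told apart. In blastocysts Col1a1, Col1a2, Col3a1 and Postn were at a mean of 0, and the trophectoderm markers were present with means from 386 to 7678 in the authors' deposited table. Of these 6 markers 3 had an unadjusted p under 0.05 in the authors' deposited table, Gata3 at 0.52, Krt18 at −0.63 and Krt8 at −0.87 on the log2 scale. Of the 6 inner cell mass markers 2 did in the authors' deposited table, Nanog at −1.93 and Pou5f1 at −1.21. None of these 5 passed after adjustment, and their part in the blastocyst values of Usp3, Rbpms2 and Dennd4a was not tested.

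In blastocysts 23 of 51 members were negative (45.1%) in the authors' deposited table, against 51.7% of all tested genes, with a median of 0.05. Signs were also counted on either side of Dis3l. Per the authors' deposited tables, members at lower coordinates were negative in 8 of 19 cases in blastocysts and 11 of 18 in ES cells, and those at higher coordinates in 15 of 32 and 20 of 31. All 5 members with an unadjusted p under 0.05 in either table lay at higher coordinates, the 5′ side of Dis3l, where 33 of the 53 members lie. There they were 3 of 32 in blastocysts (9.38%) and 3 of 31 in ES cells (9.68%). At lower coordinates they were 0 of 19 and 0 of 18. The shares of all tested genes were 6.21% and 5.62%, so counts this small are a description only.

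The members were then ordered by distance from Dis3l. The absolute Wald statistic is the size of the log2 fold change in standard errors. Its median in ES cells in the authors' deposited table was 1.00 for the 7 members within 0.5 Mb, 0.50 for the 9 from 0.5 to 1 Mb, 0.64 for the 20 from 1 to 2 Mb and 0.57 for the 13 from 2 to 4 Mb, against 0.61 for all tested genes. In blastocysts the same medians in the authors' deposited table were 0.52, 0.55, 0.75 and 0.93 over 8, 10, 19 and 14 members, against 0.74 for all. The nearest group was thus the highest in ES cells and the lowest in blastocysts. Across members, which share libraries and are not independent, the absolute Wald statistic had a Pearson correlation with distance of −0.18 in ES cells (Spearman −0.14, 49 genes) and of 0.13 in blastocysts (Spearman 0.16, 51 genes). These weak values are descriptions. At the edges of the window the members Lrrc49 and Vps13c had ES cell log2 fold changes of −0.09 and −0.12 in the authors' deposited table, and the next genes outside, Thsd4 and Rora, had 0.00 and 0.02.

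The signs of the members were split evenly between materials. Of the 48 members tested in both tables, 24 had the same sign, 14 negative in both and 10 positive in both. Another 16 were positive in blastocysts and negative in ES cells, and 8 the other way. The Wald statistics of the authors' deposited tables had a Pearson correlation of −0.13 over these 48 genes (Spearman −0.06). The tables share no library, and neither states which group was the numerator.

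**Figure D4:**
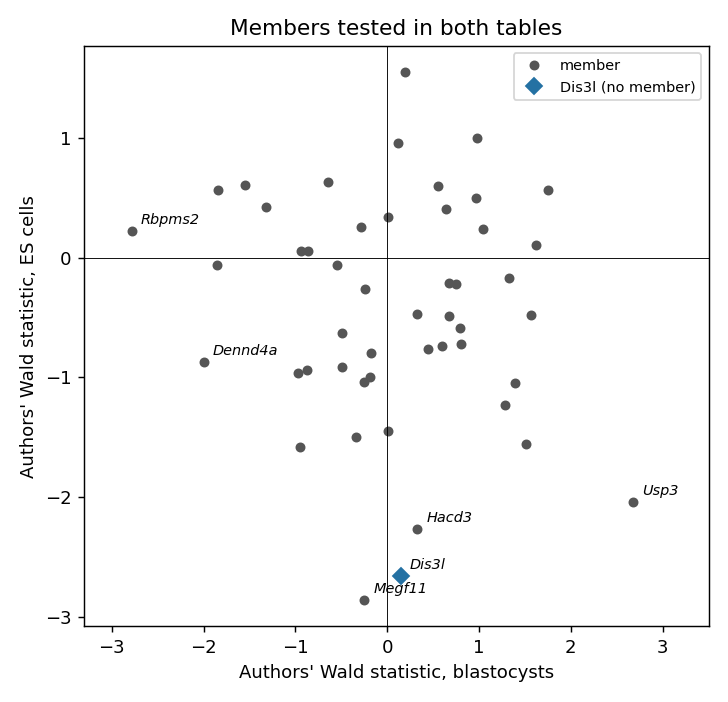
Wald statistics of the 48 members tested in both of the authors' deposited tables, blastocysts on the horizontal and ES cells on the vertical axis, with Dis3l as a blue diamond. Megf11 and Hacd3 lie low on the ES cell axis and near 0 on the blastocyst axis, while Usp3 lies at the right and low, and 24 of the 48 members have the same sign in both.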

How the data were processed

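RNA sequencing results of 12 samples were used through 2 deposited tables, 1 for blastocysts and 1 for ES cells. Per the submitters' processing notes, the tools were STAR 2.4.0b, bedtools, SAMtools, featureCounts, Subread 2.0.1 and DESeq2 1.34.0, and the build was GRCm38; settings are not given in the sources used here. Per the file headers, the signal column is the authors' mean of normalised counts, the log2 columns are the log2 fold change and its standard error, the score column is the Wald statistic, and the p-value columns hold the deposited p-value and its adjusted form. The tables hold no value per sample, so the authors' tests were used as they stand.

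From the means, whole reads per count column were solved as sums of a fixed step per column and accepted where exactly 1 solution remained. For blastocyst means above 60, only solutions near the deposited log2 fold change were searched. For the members among them, a solution was kept if a model with the deposited standard error gave that fold change back within 5e-06. The deposited fold change thus helped to choose these reads. ES cell reads were solved from the means alone. From the mean alone, 1 solution was found for 1500 of 1500 low blastocyst means checked and 12796 of 12798 ES cell means. The model was checked on 244 blastocyst genes with means well below 60 and reads in all 6 columns, solved from the mean alone. For 244 of 244 it gave back the deposited log2 fold change within 1e-05. This check did not reach the means above 60, where the model helped to choose the reads. Over the low blastocyst genes solved from the mean alone, 97.8% of the counts per gene and column were even numbers, with 0 taken as even. Size factors and normalised counts follow from the steps. On simulated data with these steps, the reads were solved exactly for 100 of 100 ES cell genes without a change and 100 of 100 with a log2 change of 1, at means up to 810, and for 98 of 98 and 99 of 99 blastocyst genes at means up to 60; higher blastocyst means were not simulated. For the share of all blastocyst genes, those tested with a mean of at most 200 were solved, 11938 of 11947. Why the blastocyst counts were nearly all even was not tested, and a read there may not be a separate fragment. Amplified reads are also not independent molecules. A floor of 3 reads may therefore fall short even of counting error in blastocysts. Calculations used Python 3.11.15, numpy 2.4.6, scipy 1.17.1, pandas 2.3.3 and numba 0.67.0.

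Positions are those of the ES cell table; 32 members had the same start in the other. Ints14 and Pclaf have older symbols in the blastocyst table. Members tested in neither comparison or in 1 only were 2300009A05Rik and Pclaf (not tested in blastocysts) and 2300009A05Rik, Lctl, Igdcc3 and Aph1b (not tested in ES cells). Strand, exon overlap and exon length came from GENCODE M21. Named genes were the 20 members nearest to Dis3l that were tested in both tables, those with an unadjusted p under 0.05 in either, and the 5 with the highest mean in each, 28 in all; others are named where a functional list or a sign pattern is described, after their values were seen. The members and lists were chosen with earlier results of these data known. Alternatives were other thresholds, windows, adjustments and minimum means, the read ratios, and leaving out count columns.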

Additional observations from a re-analysis of the deposited data

Results flagged for a closer look

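In 2 members every positive-side column lay on one side of every negative-side column in both materials, in opposite directions. This was 2 of 33 members with recovered reads (6.06%) at a blastocyst mean of at most 200, against 2.15% of all 6614 such genes. Snapc5 had a log2 ratio of reads of −1.87 in blastocysts (−2.56 to −1.29 with columns left out in turn) and 0.43 in ES cells. Usp3 had 1.38 in blastocysts and −0.94 in ES cells, and −0.39 without negative-side column 2. The difference between materials was not tested, and because neither table states its direction, the opposite signs may refer to opposite orders of the groups.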

How the results depend on the processing

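No paired analysis was possible because the tables hold no value per sample. The count of members with an adjusted p under 0.05 stayed at 0 in both materials under each of the 8 alternatives run per material. The stricter threshold and the narrower windows among these could only return 0, so they are no check of that count. The 3 blastocyst members at an unadjusted p under 0.05 became 1 within 1 Mb of Dis3l, where fewer genes are counted. The 3 ES cell members became 1, Megf11, at an unadjusted p under 0.01. With a mean of at least 50, 2 remained in each material, Rbpms2 and Usp3 in blastocysts and Hacd3 and Usp3 in ES cells. Megf11, at an ES cell mean of 22, was not among them. The ES cell value of Dis3l, −0.88 in the authors' deposited table, was −1.78 from the recovered reads and −1.83, −1.74, −1.80 and −1.77 with each column left out in turn. For Dis3l in blastocysts, 0.28 in the authors' deposited table, the same alternatives gave −0.86 to 0.85. Among the named members, 164 of 170 recomputed blastocyst values and 104 of 140 ES cell values lay within 1 standard error of the authors' value. These counts do not compare the materials. Blastocyst reads at means above 60 were chosen with the deposited fold change, so ratios from all their columns return it by construction. The median standard error was 0.59 in blastocysts and 0.30 in ES cells. Deposited ES cell fold changes were also smaller than the read ratios, as for Megf11 at −0.95 against −2.04. Leaving out Parp16 from the transcription list, chosen after seeing the data, moved its blastocyst median from −0.77 to −0.57. Low counts in single embryos limit the blastocyst values, and 2 columns a side limit those of ES cells.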
